A study of Mus musculus with 6 samples.

Results

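The genes described are 4 globins that are not the main globins of adult red cells (the embryonic genes Hba-x, Hbb-y and Hbb-bh1, and the theta gene Hbq1a) and 4 transcription factors known to repress embryonic or fetal globin (Bcl11a, Sox6, Myb and Zbtb7a). They were chosen by name, from the probe sets annotated to 1 gene, and all 8 were found among the 19661 genes measured, each with 1 probe set of its own. RNA came from megakaryocyte-erythroid progenitors, the shared precursors of the red cell and platelet lines, sorted from the bone marrow of B6.129 mice that carried intact Fog1 (Fog1+/+) or 2 knock-in copies of it (Fog1ki/ki). There were 3 arrays a genotype, labelled as biological replicates, and the labels give neither the age of the mice nor how many contributed to an array, nor what the knock-in changes. FOG1 is a cofactor of GATA1, and, as far as the study is known generally, the mutant protein has lost its contact with the NuRD chromatin complex. Described here is whether the RNA levels of these 8 genes differed between the genotypes. Whether globin silencing depends on that contact was not tested.

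A red cell makes different globins as an animal develops. In the mouse the yolk sac's primitive red cells use the alpha-like zeta chain from Hba-x and the beta-like chains from Hbb-y (epsilon y) and Hbb-bh1 (beta h1), and the red cells of fetal liver and bone marrow shut these genes off and use the adult genes beside them. BCL11A, SOX6, MYB and ZBTB7A (also called LRF) take part in that silencing, and BCL11A and ZBTB7A are known to recruit NuRD, the same complex that FOG1 binds.

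None of the 8 genes changed past the threshold between the genotypes (0 of 8 at a limma adjusted p under 0.05, where 0.773% of all genes passed). For the 4 repressors the log2 differences, Fog1ki/ki minus Fog1+/+, lay between -0.10 and 0.12, and all 4 of their 95% intervals included 0. The 3 embryonic globins had log2 differences of -0.09 for Hba-x, -0.15 for Hbb-bh1 and 0.12 for Hbb-y. Hbq1a, a theta globin, was the 1 gene of the 8 whose arrays did not overlap between genotypes, as they did not in 14.8% of all genes, with a log2 difference of 0.47 that did not pass over all genes (limma adjusted p = 0.201). By direction, the arrays of Fog1ki/ki lay wholly above in 8.31% of genes and wholly below in 6.53%.

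The promoters of 7 of the 8 genes were found in RefSeq's table for GRCm38.p6, and Hbb-bh1 was not among them. The 250 bases before the annotated start are printed for the 3 described globins with an entry, as the stretch where the repressors and GATA1 would act. They are also printed for Hbq1b, the second theta gene, and for Zbtb7a, which held AGATAA there. Capitals mark every match of the searched letters on either strand. The GATA motif was searched as AGATAA only, and other forms are not marked. TGATAA, which was not searched, stands in lower case in the Hba-x window and, on the other strand, in that of Hbb-y. For the box that KLF1 binds the letters were CCACACCC. The motif of BCL11A was searched as TGACCA. The box of NF-Y was searched as CCAAT. For a TATA-like box the letters were ATAAAA only. TATAAA, which was not searched, stands in lower case in the Hba-x window. In Hbb-y the TGACCA and CCAAT matches overlap.
Hba-x (chr11:32276350-32276599, plus strand): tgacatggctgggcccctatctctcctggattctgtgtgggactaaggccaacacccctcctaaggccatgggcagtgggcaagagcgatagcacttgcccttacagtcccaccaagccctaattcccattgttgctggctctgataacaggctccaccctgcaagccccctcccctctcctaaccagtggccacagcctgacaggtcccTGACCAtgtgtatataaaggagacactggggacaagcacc
Hbb-y (chr7:103853208-103853457, minus strand): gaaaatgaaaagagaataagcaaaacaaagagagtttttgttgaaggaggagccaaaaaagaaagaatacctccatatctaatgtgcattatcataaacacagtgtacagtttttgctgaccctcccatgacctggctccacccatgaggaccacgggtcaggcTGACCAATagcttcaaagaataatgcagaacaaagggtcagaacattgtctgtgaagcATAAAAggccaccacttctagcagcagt
Hbq1a (chr11:32299819-32300068, plus strand): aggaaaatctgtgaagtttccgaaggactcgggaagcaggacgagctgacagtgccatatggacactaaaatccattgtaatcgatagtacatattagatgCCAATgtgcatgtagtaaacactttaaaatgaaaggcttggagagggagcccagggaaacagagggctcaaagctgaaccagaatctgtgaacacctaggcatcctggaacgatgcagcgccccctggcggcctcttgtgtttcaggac
Hbq1b (chr11:32286714-32286963, plus strand): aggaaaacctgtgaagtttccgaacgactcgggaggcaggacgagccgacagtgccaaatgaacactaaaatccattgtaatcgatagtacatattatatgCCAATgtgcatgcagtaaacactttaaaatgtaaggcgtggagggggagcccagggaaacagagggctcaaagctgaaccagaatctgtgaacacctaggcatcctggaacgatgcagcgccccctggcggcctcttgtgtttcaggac
Zbtb7a (chr10:81136021-81136270, plus strand): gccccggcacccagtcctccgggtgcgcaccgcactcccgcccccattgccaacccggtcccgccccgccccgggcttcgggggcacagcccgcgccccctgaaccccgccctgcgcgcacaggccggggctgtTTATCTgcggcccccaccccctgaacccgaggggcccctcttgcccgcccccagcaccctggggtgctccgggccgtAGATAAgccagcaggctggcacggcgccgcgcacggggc

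The letters TGACCA stood in the windows of both embryonic globins with an entry, starting 40 bases before the start of Hba-x and 86 bases before that of Hbb-y. Among 32851 promoter windows of the same length 11.4% held them. The Hbb-y window also held ATAAAA, 28 bases before the start, as 17.0% of windows did. That of Hba-x held TATAAA, whose share over all windows was not counted, so the 2 genes are not told apart by a TATA-like box. Hbq1a held only CCAAT, found in 33.8% of windows, and Zbtb7a held AGATAA at 2 places, found at least once in 9.99% of windows. Of the 6 annotated starts of Sox6, which are not printed, 1 also held AGATAA. That window held CCACACCC too, as 3.2% of windows did, and no printed window held it. The window of Hbb-bh2, not printed, held AGATAA as well. The windows of Hbq1a and Hbq1b matched at 239 of 250 bases (95.6%). These matches describe the letters, and no binding was measured here.

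Values are given on the log2 scale of the deposited RMA summary, in which a difference of 1 is a doubling of signal, and the levels of different genes cannot be ranked because each probe set responds differently. The lower quartile of all probe sets lay between 4.81 and 4.92 on the 6 arrays, and a probe set below it is called dim here, since no test of signal above background was run. RMA compresses the differences of dim probe sets. The plot of values by array shows all 8 genes.

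**Figure D1:**
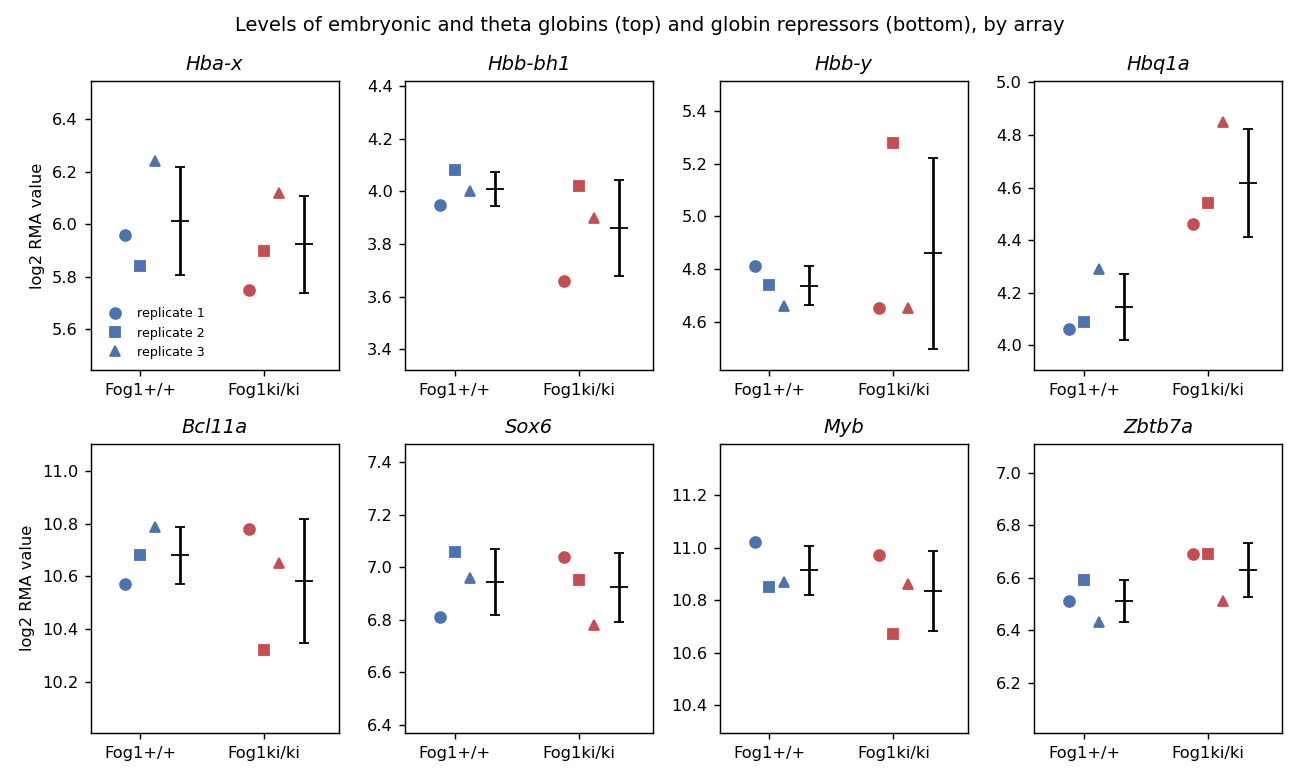
Log2 RMA value of each gene on each of 6 arrays (blue, Fog1+/+; red, Fog1ki/ki; symbols mark the replicate number; bars, mean and SD of 3 arrays), with every panel spanning the same number of log2 units. Only Hbq1a has all 3 Fog1ki/ki arrays (4.46 to 4.85) above all 3 Fog1+/+ arrays (4.06 to 4.29).

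Hba-x, the zeta chain, measured 5.96, 5.84 and 6.24 in Fog1+/+ replicates 1, 2 and 3 and 5.75, 5.90 and 6.12 in Fog1ki/ki replicates 1, 2 and 3. The genotypes overlapped, and replicate 3 was the highest array of each. In Fog1ki/ki it differed by -0.09 on the log2 scale (SE 0.14, limma adjusted p = 0.894), with a 95% interval from 1.32-fold lower to 1.16-fold higher in Fog1ki/ki. Hba-x was the embryonic globin that was not dim, lying above the lower quartile on every array.

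Hbb-bh1, the beta h1 chain, measured 3.95, 4.08 and 4.0 in Fog1+/+ and 3.66, 4.02 and 3.90 in Fog1ki/ki. Fog1ki/ki replicate 1 was the lowest array and the other two lay among or just below the Fog1+/+ arrays. Between genotypes it differed by -0.15 (SE 0.11, limma adjusted p = 0.740), with an interval from 1.32-fold lower to 1.07-fold higher. The probe set was dim on all 6 arrays, so its values bound the Hbb-bh1 transcript only loosely in either genotype.

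Hbb-y, the epsilon y chain, measured 4.81, 4.74 and 4.66 in Fog1+/+ and 4.65, 5.28 and 4.65 in Fog1ki/ki. Fog1ki/ki replicate 2 stood above all other arrays, and was the 1 array on which Hbb-y was not dim, while the other Fog1ki/ki arrays were just below the lowest Fog1+/+ array. The log2 difference was 0.12 (SE 0.17, limma adjusted p = 0.879), with an interval from 1.19-fold lower to 1.41-fold higher. Without Fog1ki/ki replicate 2 it was -0.09 (SE 0.10, limma adjusted p = 0.848), so the sign of the Hbb-y difference rested on that array.

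Hbq1a encodes theta globin, an alpha-like chain whose part in haemoglobin is not settled. It measured 4.06, 4.09 and 4.29 in Fog1+/+ and 4.46, 4.54 and 4.85 in Fog1ki/ki, dim on all 6 arrays. Every Fog1ki/ki array lay above every Fog1+/+ array. The log2 difference was 0.47 (SE 0.12), with an interval from 1.14-fold to 1.68-fold higher in Fog1ki/ki, and the unadjusted limma p was 0.00452, where 9.57% of all genes had one under 0.05 and 2.24% one smaller than that of Hbq1a. In the 16 alternative settings that gave a value it stayed between 0.35 and 0.55, with limma adjusted p from 0.0951 to 0.527. An exact permutation test of 3 arrays against 3 cannot go below p = 0.1.

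The other theta gene did not show the same order of arrays. Hbq1b measured 6.78, 6.24 and 6.55 in Fog1+/+ and 5.91, 6.69 and 6.65 in Fog1ki/ki, or -0.11 on the log2 scale (SE 0.22, limma adjusted p = 0.927). Its genotypes overlapped, with Fog1ki/ki replicate 1 the lowest array. Each copy has a probe set of its own, and whether transcripts of one reach the probes of the other was not tested, since no probe or transcript sequence was compared. The values of Hbq1a and Hbq1b are uncertain to that extent. The difference between the responses of the theta genes was not tested. Hbb-bh2, a beta-like gene beside Hbb-bh1, differed by 0.11 (log2, SE 0.12, limma adjusted p = 0.847) with overlapping genotypes.

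Altogether 6 of 13 listed red-cell globin genes had a probe set of their own, and 0 of these 6 passed the test (1 at an unadjusted p under 0.05, Hbq1a). Their median log2 difference was 0.01, beside 0.02 over all genes. The main adult genes Hba-a1, Hba-a2, Hbb-bs and Hbb-bt were not analysed here, so the share of embryonic among all globin transcripts was not measured. None of the 3 globins of other tissues, myoglobin (Mb), cytoglobin (Cygb) and neuroglobin (Ngb), passed the limma test (0 of 3, also 0 at an unadjusted p under 0.05), and Cygb had the smallest p, at -0.14 (log2, SE 0.12, limma adjusted p = 0.775).

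**Figure D2:**
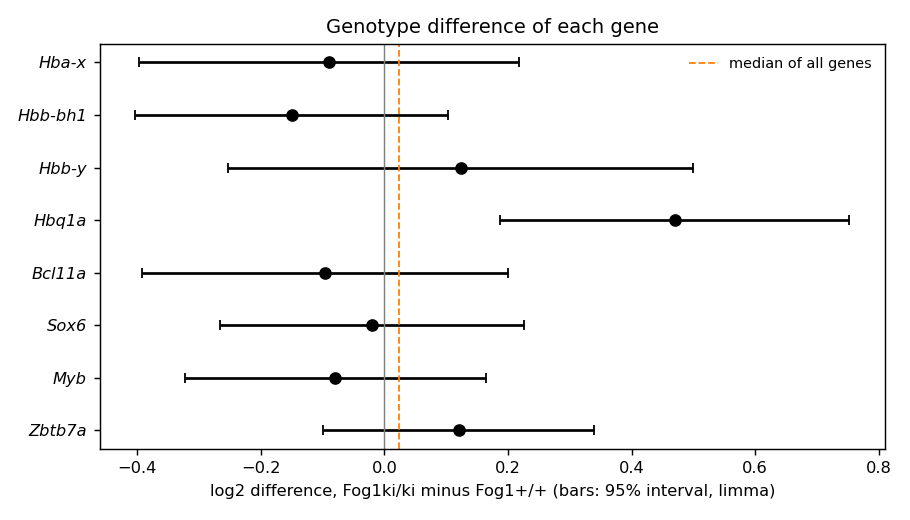
Log2 difference of each of the 8 genes, Fog1ki/ki minus Fog1+/+ (points), with its 95% interval from limma (bars), the zero line (grey) and the median of all genes (dashed, 0.02). The intervals of 7 genes cross 0, and that of Hbq1a runs from 0.19 to 0.75.

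Bcl11a encodes a zinc finger protein that binds globin promoters and holds embryonic and fetal globin genes silent, and it is also needed for B cells. It measured 10.57, 10.68 and 10.79 in Fog1+/+ and 10.78, 10.32 and 10.65 in Fog1ki/ki. Fog1ki/ki replicate 2 was the lowest array, and the others lay within the Fog1+/+ range. Its log2 difference came to -0.10 (SE 0.13, limma adjusted p = 0.880), with an interval from 1.31-fold lower to 1.15-fold higher. Without Fog1ki/ki replicate 2 it was 0.04 (limma adjusted p = 0.960). The probe set lay above the upper quartile of every array, so the transcript was measured well above the dim range in both genotypes.

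Sox6 encodes an HMG box factor that works with BCL11A at the globin locus and drives red cell maturation. It measured 6.81, 7.06 and 6.96 in Fog1+/+ and 7.04, 6.95 and 6.78 in Fog1ki/ki. The ranges covered nearly the same span. The log2 difference came to -0.02 (SE 0.11, limma adjusted p = 0.976), the smallest of the 8, with an interval from 1.20-fold lower to 1.17-fold higher.

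Myb encodes a factor of proliferating progenitors, and lower MYB activity is known to go with more fetal globin in people. It measured 11.02, 10.85 and 10.87 in Fog1+/+ and 10.97, 10.67 and 10.86 in Fog1ki/ki, above the upper quartile on every array. The highest array was Fog1+/+ replicate 1 and the lowest was Fog1ki/ki replicate 2, and the other 4 overlapped. At -0.08 (log2), the difference was within the spread of the arrays (SE 0.11, limma adjusted p = 0.879), and its interval ran from 1.25-fold lower to 1.12-fold higher.

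Zbtb7a encodes a zinc finger repressor that silences fetal globin independently of BCL11A. It measured 6.51, 6.59 and 6.43 in Fog1+/+ and 6.69, 6.69 and 6.51 in Fog1ki/ki. Fog1ki/ki replicates 1 and 2 were above all Fog1+/+ arrays, and replicate 3 equalled Fog1+/+ replicate 1. The log2 difference was 0.12 (SE 0.10, limma adjusted p = 0.766), with an interval from 1.07-fold lower to 1.27-fold higher. Its sign was kept in all 17 alternative settings, between 0.07 and 0.18, and it passed in 0 of them.

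The 4 repressors thus had intervals that ended at 1.31-fold lower and 1.27-fold higher at the widest. A change of transcript level beyond those bounds lay outside the interval of each, while smaller changes were not resolved by these arrays, and protein and binding were not measured. In this bulk RNA, fewer cells of a type and less RNA per cell cannot be told apart.

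The counts in the lists below stand against 0.773% of all genes called (0.376% higher, 0.397% lower) and 9.57% with an unadjusted p under 0.05. At such shares few or no calls would be found in lists of this size, so a count of 0 says little about a list. Where genotypes are said not to overlap, the share over all genes was 14.8%. None of the 7 paralogs of the repressors (Bcl11b, Sox5, Sox13, Zbtb7b, Zbtb7c, Mybl1 and Mybl2) passed the limma test (0 of 7, also 0 at an unadjusted p under 0.05), and their median log2 difference was 0.02. Bcl11b, a paralog of Bcl11a best known from T cells, had the smallest p, at 0.12 (SE 0.09, limma adjusted p = 0.757), and its Fog1ki/ki arrays (6.12, 6.19 and 6.09) lay just above its Fog1+/+ arrays (6.08, 5.91 and 6.06).

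The other genes known to act on globin promoters held 1 of the calls. The list of 29 regulators is named DNA-binding in the figure of lists, but also holds the cofactor genes Lmo2, Ldb1 and Zfpm1. Zfpm1, which encodes FOG1, had 0.05 (log2, SE 0.13, limma adjusted p = 0.948) with overlapping genotypes. Of the 29, Gata2, the GATA factor of early progenitors and mast cells, rose, 28 did not pass and 0 fell. Over all genes 0.376% rose and 0.397% fell. The list had a median log2 difference of 0.02, with 3 higher and 2 lower before adjustment, at a limma p under 0.05. The log2 difference of Gata2 was 1.14 (SE 0.16, limma adjusted p = 0.0164). Its call was lost without any 1 Fog1+/+ array or without Fog1ki/ki replicate 3 (limma adjusted p from 0.0579 to 0.0876). Klf1, the activator of adult beta globin and, in red cells, of Bcl11a and Zbtb7a, stood at -0.03 (log2, SE 0.09, limma adjusted p = 0.958). The values of Klf1 were 8.37, 8.33 and 8.27 in Fog1+/+ and 8.31, 8.35 and 8.23 in Fog1ki/ki, which overlapped. Nfe2, whose protein binds the globin enhancers, had 0.33 (SE 0.11, limma adjusted p = 0.311), and Nfe2l2, its relative in the oxidative stress response, had -0.40 (SE 0.09, limma adjusted p = 0.133). Neither passed, although in both the genotypes did not overlap. Gata1, which encodes the partner of FOG1, had -0.29 (SE 0.11, limma adjusted p = 0.435), also with every Fog1ki/ki array below every Fog1+/+ array. Of the 29 regulators, 4 lay wholly above and 4 wholly below in Fog1ki/ki, where 8.31% and 6.53% of all genes did. Hic2, a repressor of Bcl11a, stood at 0.28 (SE 0.10, limma adjusted p = 0.357), and Zfp410, an activator of Chd4, had -0.19 (SE 0.09, limma adjusted p = 0.552).

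Of the 26 measured co-repressor genes that the silencing factors draw on, Chd3, a NuRD helicase, rose, 25 did not pass and 0 fell, beside 0.376% of all genes higher and 0.397% lower (median -0.05). Before adjustment 3 were higher and 2 lower at p under 0.05, as 9.57% of all genes were in either direction. Chd3 measured 7.47, 7.56 and 7.26 in Fog1+/+ and 8.46, 8.57 and 8.45 in Fog1ki/ki, higher by 1.06 on the log2 scale (SE 0.10, limma adjusted p = 0.00280), with no overlap, and not past the threshold without both replicates 3 (limma adjusted p = 0.0700). The helicase through which NuRD is best known to silence fetal globin, Chd4, had -0.27 (SE 0.09, limma adjusted p = 0.353), and the methyl-DNA binding protein Mbd2 had -0.16 (SE 0.08, limma adjusted p = 0.611). In both, every Fog1ki/ki array lay below every Fog1+/+ array, without passing. Of the 26 co-repressor genes, 3 lay wholly above and 4 wholly below in Fog1ki/ki, where 8.31% and 6.53% of all genes did. Kdm1a, the histone demethylase LSD1, had -0.22 (SE 0.09) and its partner Rcor1 0.31 (SE 0.13), of opposite sign and neither past the threshold (limma adjusted p = 0.433 and 0.485). The DNA methyltransferase gene Dnmt1 had -0.01 (SE 0.09, limma adjusted p = 0.980).

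Markers of an embryonic or fetal programme did not pass. Of 8 measured genes that set the fetal programme or control translation in red cells, 0 passed in limma (before adjustment, 0 higher and 1 lower, beside 9.57% of all genes in either direction, median 0.05). The one with an unadjusted p under 0.05 was Eif2ak1, the haem-regulated kinase that restrains globin translation, at -0.22 (log2, SE 0.08, limma adjusted p = 0.435). Lin28b, the fetal RNA-binding protein that lowers BCL11A, measured 4.39, 3.91 and 4.20 in Fog1+/+ and 4.44, 4.28 and 4.27 in Fog1ki/ki, dim on all 6 arrays. Its log2 difference was 0.16 (SE 0.13, limma adjusted p = 0.760), with overlapping genotypes. The mean level of 7 yolk sac and embryonic genes was 5.75 to 5.86 in Fog1+/+ and 5.77 to 5.90 in Fog1ki/ki, and 0 of the 7 passed (limma, also 0 at an unadjusted p under 0.05). Lin28b, Igf2bp1, Igf2bp3 and Hmga2 are in both lists, so the counts are not independent.

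The cofactors and known target genes of MYB had 0 calls among 10 measured in limma (before adjustment, 1 higher and 2 lower, beside 9.57% of all genes in either direction, median -0.08). Bcl2, a survival gene that MYB activates, had the smallest p, with 7.28, 7.68 and 7.30 in Fog1+/+ and 8.06, 7.83 and 8.08 in Fog1ki/ki. Its log2 difference was 0.57 (SE 0.13, limma adjusted p = 0.132). Kit and Ccne1 lay lower, at -0.38 (SE 0.11, limma adjusted p = 0.233) and -0.34 (SE 0.09, limma adjusted p = 0.226). In all 3 of these genes the genotypes did not overlap, and in none did the difference pass. Over the list, 2 genes lay wholly above and 2 wholly below in Fog1ki/ki, where 8.31% and 6.53% of all genes did.

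**Figure D3:**
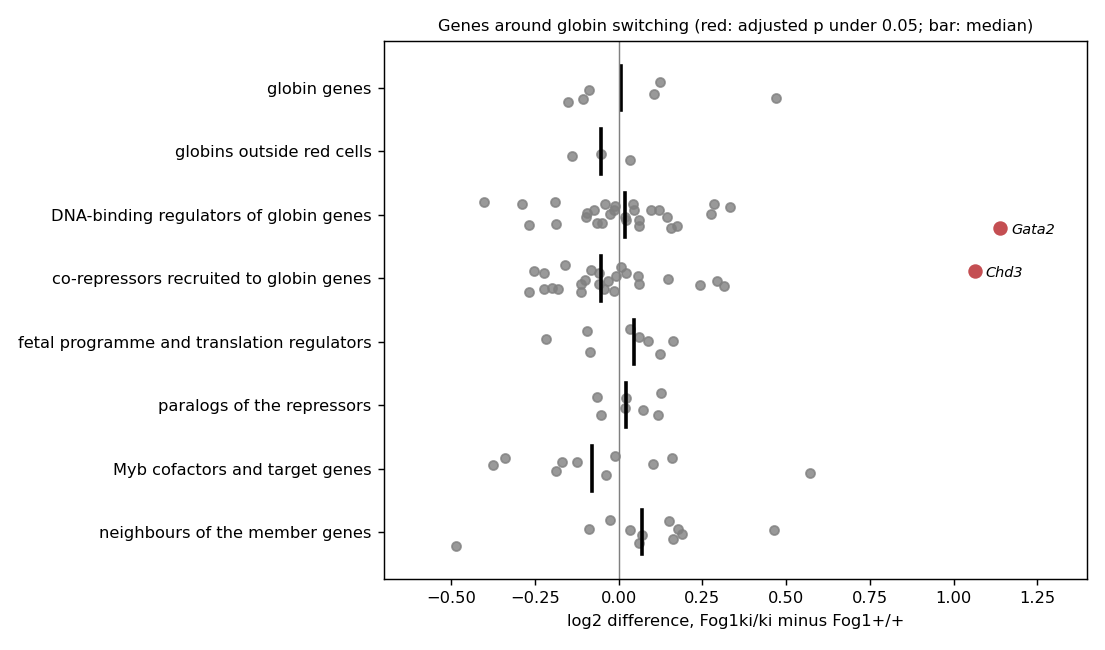
Log2 difference, Fog1ki/ki minus Fog1+/+, of each measured gene in 8 lists around globin switching (points; red, limma adjusted p under 0.05; black bars, list medians; points are spread vertically for legibility). Gata2 (1.14) and Chd3 (1.06) are the genes past the threshold, and the list medians run from -0.08 to 0.07.

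A list of genes near the alpha-like globins, Bcl11a, Myb and Zbtb7a was also read, and 0 of 11 passed in limma (before adjustment, 1 higher and 1 lower, beside 9.57% of all genes in either direction, median 0.07). The list held no gene beside Sox6 or the beta-like globins. It also left out some neighbours of the others, such as Fancl next to Bcl11a. Nprl3, whose introns hold the main enhancers of the alpha-globin genes, is the gene next to Hba-x on chromosome 11. It measured 6.49, 6.52 and 6.73 in Fog1+/+ and 7.09, 6.94 and 7.10 in Fog1ki/ki. The genotypes did not overlap, and the log2 difference was 0.46 (SE 0.10, limma adjusted p = 0.117, from 0.0953 to 0.377 in the alternative settings). Between Nprl3 and Hbq1a lie Hba-x and Hbq1b, at -0.09 and -0.11, and the adult alpha genes, so the values did not run one way along the locus. On the far side Mpg, a DNA repair glycosylase, had 0.19 (SE 0.12) and Rhbdf1 -0.03 (SE 0.11).

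Next to Bcl11a, also on chromosome 11, the poly(A) polymerase gene Papolg measured 8.11, 8.35 and 8.16 in Fog1+/+ and 7.79, 7.82 and 7.55 in Fog1ki/ki. Every Fog1ki/ki array was lower, with -0.49 on the log2 scale (SE 0.11, limma adjusted p = 0.130), which did not pass. Beside Myb on chromosome 10, Hbs1l, whose interval with MYB carries variants linked to fetal globin in people, had 0.07 (SE 0.14, limma adjusted p = 0.926) and Ahi1 had 0.16 (SE 0.10, limma adjusted p = 0.655).

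**Figure D4:**
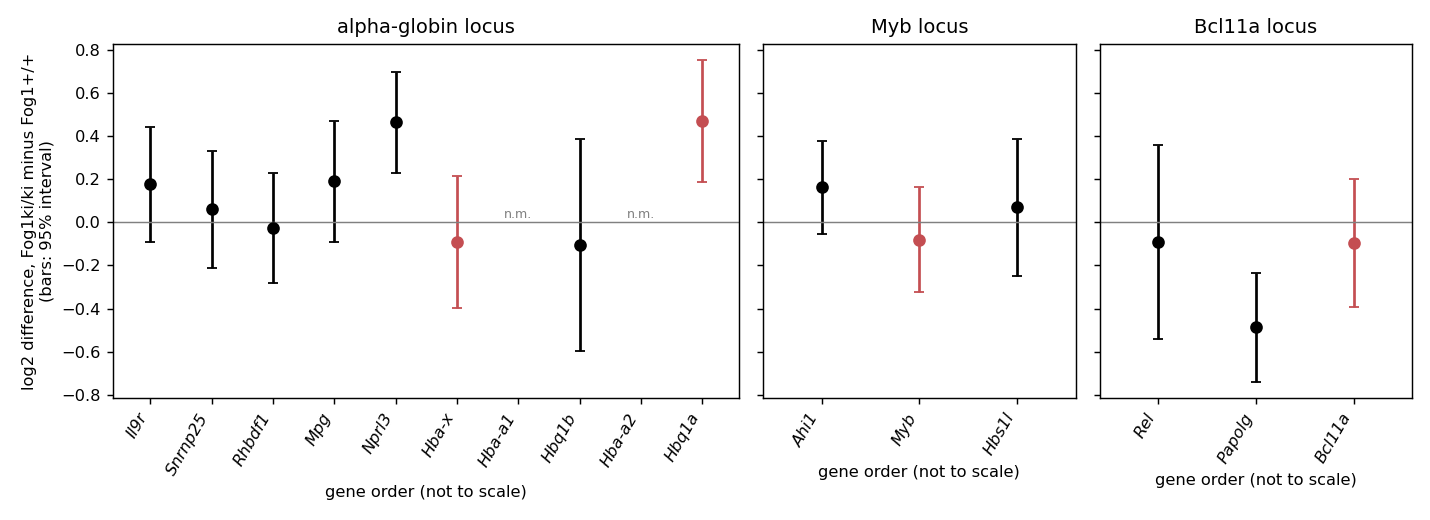
Log2 difference, Fog1ki/ki minus Fog1+/+ (points), with 95% limma intervals (bars), for genes in RefSeq order at the alpha-globin, Myb and Bcl11a loci (red, the globins and repressors described; n.m., not measured; spacing is not to scale). The intervals of Nprl3, Hbq1a and Papolg leave out 0 without an adjusted p under 0.05, and all others drawn include it.

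Over the 6 arrays the repressors and globins followed different genes. As a description, the gene most like Bcl11a among 3405 candidates (range of at least 0.5 and a mean at or above the median gene) was Slc43a3, with a Pearson correlation of 0.99 over 6 arrays, and 104 candidates exceeded 0.9. For Hbb-y it was Tmem9b (0.99), which also stood highest in Fog1ki/ki replicate 2, at 8.92 against 8.33 to 8.43 elsewhere. For the others it was Ubac2 with Hba-x (0.97), Zmat2 with Hbb-bh1 (0.99), Mrtfb with Hbq1a (0.98), Zbtb6 with Sox6 (0.99), Acaca with Myb (0.97) and Itpr2 with Zbtb7a (0.98). Each of the 8 genes had between 8 and 104 candidates above 0.9, so these names are no more than descriptions of 6 arrays.

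Fog1ki/ki replicate 2, which was lowest in Bcl11a and Myb and highest in Hbb-y, was also the array with high values of both Xist (9.13) and the Y-linked Eif2s3y (9.44). Replicate 3 of each genotype had Eif2s3y at 3.21 and 3.46 with Xist at 11.02 and 11.03, and the remaining arrays had Xist at 5.18 to 5.90. The part of these differences between arrays in the values above was examined only in fits with a term for the arrays with low Y-linked values, without both of those arrays and without Fog1ki/ki replicate 2, in each of which 0 of the 8 genes passed.

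The gate was described as Kit-positive, CD34-negative and low in Fc receptors II and III, and its genes were read beside the array quartiles as a description only, since levels of different probe sets cannot be ranked. Kit lay above the upper quartile on every array, and every Fog1ki/ki array (9.72 to 10.05) was below every Fog1+/+ array (10.26 to 10.30), without passing. Cd34 (4.34 to 4.56) lay below the lower quartile on every array, and Fcgr3 (5.21 to 5.55) on none. Fcgr2b, an inhibitory Fc receptor, measured 4.71, 4.73 and 4.75 in Fog1+/+, all dim, and 5.07, 4.98 and 5.02 in Fog1ki/ki, a difference of 0.29 that did not pass (log2, SE 0.08, limma adjusted p = 0.248). Klf1 and the erythropoietin receptor Epor lay above the median on every array.

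Of 13 marker lists, the mean level of 6 was higher and that of 1 lower in every Fog1ki/ki array than in every Fog1+/+ array. The 6 were the megakaryocyte, mast cell, basophil and eosinophil, B cell, stem cell, and neuron and muscle lists. The last, foreign to marrow, met the criterion by a narrow margin, with 5.79 to 5.83 against 5.83 to 5.91. Of single genes, 8.31% lay wholly above and 6.53% wholly below in Fog1ki/ki, and the share expected for list means was not tested. The median of all probe sets was 6.05 to 6.06 in Fog1+/+, and 6.02, 6.12 and 6.15 in Fog1ki/ki. For the stem cell list the means were 5.68 to 5.71 against 5.76 to 5.84, with 0 of 8 past the test in limma (before adjustment, 2 higher and 1 lower). The lower gene, Slamf1, had the smallest p of that list, at -0.49 (log2, SE 0.13, limma adjusted p = 0.196), with every Fog1ki/ki array below every Fog1+/+ array. The mean over 17 erythroid genes was the one that was lower, at 9.17 to 9.29 in Fog1+/+ and 9.0 to 9.14 in Fog1ki/ki. Of these genes 0 were higher and 1 lower, Xk, and before adjustment 0 were higher and 4 lower. The mean over 10 mast cell genes was 4.79 to 4.86 against 5.32 to 5.73, with 1 higher, Ms4a2, and before adjustment 3 higher and 0 lower. Ms4a2 (3.79) and Fcer1a (1.91) carried most of that shift, Cpa3 had 0.53 with overlapping arrays, and the other members lay between 0.03 and 0.21 (list median 0.18). The mean over 9 megakaryocyte genes was 6.27 to 6.38 against 6.50 to 6.60, with 0 past the test in limma (before adjustment, 2 higher and 0 lower). Pf4 had the largest log2 difference of these genes, 0.97, beside a list median of 0.09 and a lowest value of -0.04, for Ppbp. The mean over 9 genes of B cells, which also express Bcl11a, was 5.44 to 5.49 against 5.60 to 5.61, with 0 past the test in limma, before or after adjustment. For basophils and eosinophils it was 4.97 to 5.04 against 5.21 to 5.31, also with 0 of 9 past the test in limma (before adjustment, 3 higher and 0 lower). In that list Mcpt8 (1.03) and Prg2 (0.83) had the largest differences, Mcpt8 with 7.40, 5.50 and 5.44 in Fog1ki/ki. Epx, Ear6 and Ccr3 lay between -0.05 and 0.01, and 5 of the 9 genes were dim on all 6 arrays. The before-adjustment counts stand beside 9.57% of all genes. Whether these marker differences had a part in the values of the globins and repressors was not tested.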

How the data were processed

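Gene expression in sorted progenitors was measured on 6 1-colour arrays, 3 per genotype, after Trizol extraction and WT-Ovation Pico amplification, per the labels' protocols. The authors deposited log2 values (a scale read from the values themselves) made with RMA, per the submitters' processing notes. Software and settings: not given in the sources used here. Of 25668 probe sets, 20777 were annotated to 1 gene, 232 to several and 4659 to none. The 19661 genes were each represented by the probe set with the highest mean. Symbols of all 8 genes matched RefSeq (GRCm38.p6) through Entrez identifiers.

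All 6 arrays entered 1 fit with genotype as its term (limma 3.58.1 with R 4.3.3, lmFit then eBayes, two-sided), with Benjamini-Hochberg adjustment over all genes, called under 0.05. Precision is limited by the number of arrays, and where arrays share a source beyond the label, p-values measure only the spread between these samples. On simulated data with 19661 genes, limma recovered 18, 41, 48 and 50 of 50 genes changed by 0.5, 1, 1.5 and 2, and called 12 of 19461 unchanged ones.

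The genes and lists were chosen with earlier results of these data known. The rule for names took the 8 genes, up to 4 called genes per list or else the one with the smallest p, and the gene most like each of the 8. Other genes were named after their values were seen. Alternatives were another normalization, centring, a filter on dim genes, other uses of probe sets, variance models, array weights, a block for the replicate number, a term for or removal of arrays with low Y-linked values, an adjusted p under 0.1, and leaving out each array. Tables and figures used Python 3.11.15, pandas 2.3.3 and matplotlib 3.10.9.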

Additional observations from a re-analysis of the deposited data

How the results depend on the processing

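None of the 8 genes passed the limma test in any of the 17 alternative settings (0 of 8 in each). With the fit over all 6 arrays 0 also passed at an adjusted p under 0.1, while Hbq1a came under that looser threshold with a term for the 2 arrays low in Y-linked genes (0.0951). Over all arrays 1 of the 8 had an unadjusted p under 0.05. Hbb-bh1, Hbb-y and Hbq1a are too dim for the setting without genes under the lower quartile and have no value there. Signs turned, without any call, for Hba-x without Fog1+/+ replicate 3 (0.02), for Myb with quantile normalization repeated (0.0019) and without Fog1ki/ki replicate 2 (0.0017), and for Sox6 in 3 settings (up to 0.06), besides the turns of Bcl11a and Hbb-y given above. Over all genes, 74 were higher and 78 lower in Fog1ki/ki. With arrays centred on their medians 49 were higher and 75 lower, and without both arrays with low Y-linked values 14 were higher and 10 lower. Leaving out 1 array gave 28 to 62 higher and 28 to 79 lower. Without Fog1+/+ replicates 1, 2 and 3 in turn the counts were 28, 45 and 32 higher and 32, 38 and 28 lower, without Fog1ki/ki replicate 2 they were 41 and 41, and without Fog1ki/ki replicate 3 they were 62 and 42. In the same way 0 to 1 of the 29 regulators passed, and without both arrays with low Y-linked values 0 of them and 0 of the co-repressors did, as Gata2 (1.20, adjusted p = 0.217) and Chd3 (1.0, adjusted p = 0.0700) were lost. Deviations of same-numbered arrays had correlations across genes of 0.07, -0.01 and 0.13, and those of differently numbered arrays ran from -0.13 to 0.06. Such values cannot tell whether the numbers pair the arrays, and both replicates 3 were low in Y-linked genes. With the replicate block 72 genes were higher and 61 lower, and 0 of the 8 passed. The dimness of the globin probe sets, other than those of Hba-x and Hbq1b, limits what these arrays show of them.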
